A study of Mus musculus with 3 samples.

Results

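Chil1, Chil3 and Chil4, 3 of the chitinase-like genes of the mouse, were described on 3 arrays of sorted pancreatic cells. The genes were chosen by symbol among the probe sets that the platform annotation assigns to 1 gene, and they were selected with knowledge of their measured values on these arrays, Chil3 and Chil4 in particular for their difference between the ductal arrays. They are 3 of 19938 genes with such a probe set. Their levels and differences are therefore a description, and no test was made on them. Chil1 was measured by probe set 10349968 (gene 12654), Chil3 by 10501020 (gene 12655) and Chil4 by 10501026 (gene 104183), 1 single-gene probe set each.

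Each group was 1 array of RNA from 30000 cells pooled over mice of the C57BL/6 background, all older than 6 weeks. Beta cells, the insulin-secreting cells of the islets, came from 3 untreated mice with wild-type Fbw7 and MIP-GFP, a green reporter driven by the insulin promoter. Ductal cells came from 6 mice of genotype Fbw7 +/+ and from 6 mice of genotype Fbw7 F/F, in which both alleles are floxed. Both kinds of ductal mice also carried Ck19-CreERT, a Cre recombinase under the cytokeratin promoter that tamoxifen switches on, and R26-LSL-YFP, a yellow reporter that Cre turns on, so that a sorted cell is any cell in which this Cre was active. Those mice received tamoxifen on 5 days, and 7 more days passed before their cells were collected. Cell type, reporter and tamoxifen all differ between the beta cell array and either ductal array, and these cannot be told apart.

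Chitinase-like proteins share the fold of the glycoside hydrolases that cut chitin, the polymer of fungal walls, insect cuticle and worm eggs, but have lost the catalytic activity. They are secreted lectins. The product of Chil1 is made by macrophages, neutrophils and stressed epithelia and takes part in tissue repair. Chil3 and Chil4, also called Ym1 and Ym2, are close paralogs that arose in rodents. They are widely used as markers of macrophages and epithelia exposed to the cytokines of type 2 immunity, and Chil3 is also found in neutrophils.

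In the GRCm38.p6 assembly used by RefSeq, Chil3 lies at chr3:106147554-106167564 and Chil4 at chr3:106201491-106219479, with 33926 bases and 0 annotated genes between them. Chil1 lies on another chromosome, at chr1:134182156-134190031, with 30614 bases between it and the chitinase gene Chit1. Because Chil3 and Chil4 were high on the same array, the promoter sequences of both, and that of Chil1 for contrast, are shown here from RefSeq for this assembly. Each line runs from 250 bases before the annotated start of the gene to 30 bases after it, 5′ to 3′ on the strand of the gene. Capitals mark matches to TATAAA, the TATA box, and to TTCNNNGAA, the core letters bound by STAT factors.
Chil3 (chr3:106167535-106167814, minus strand): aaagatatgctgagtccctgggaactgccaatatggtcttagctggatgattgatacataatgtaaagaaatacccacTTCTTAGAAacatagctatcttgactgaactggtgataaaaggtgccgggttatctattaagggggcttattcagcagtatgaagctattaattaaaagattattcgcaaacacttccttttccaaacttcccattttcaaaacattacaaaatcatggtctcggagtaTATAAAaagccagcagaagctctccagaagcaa
Chil4 (chr3:106219450-106219729, minus strand): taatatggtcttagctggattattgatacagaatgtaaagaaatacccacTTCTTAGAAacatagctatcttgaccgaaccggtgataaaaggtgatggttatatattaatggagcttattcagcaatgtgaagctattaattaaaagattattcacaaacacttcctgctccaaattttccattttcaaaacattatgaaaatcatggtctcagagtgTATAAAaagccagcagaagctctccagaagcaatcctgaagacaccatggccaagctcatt
Chil1 (chr1:134181906-134182185, plus strand): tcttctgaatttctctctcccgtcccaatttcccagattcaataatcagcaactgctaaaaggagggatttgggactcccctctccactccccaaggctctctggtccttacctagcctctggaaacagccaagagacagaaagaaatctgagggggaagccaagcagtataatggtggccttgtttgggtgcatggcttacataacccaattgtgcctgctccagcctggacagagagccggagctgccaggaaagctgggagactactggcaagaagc

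The windows of Chil3 and Chil4 were nearly the same sequence. In a global alignment 231 of 251 aligned bases were identical (92.0%), with 2 gap positions and an unbroken shared run of 44 bases that holds the STAT match. The other 44 pairs among 10 windows of the chitinase family were 50.6% to 65.3% identical, with no shared run above 13 bases. The annotated start of Chil3 lies 28 bases further upstream relative to this shared sequence than that of Chil4. The TATAAA match therefore begins 31 bases before the start in Chil4 and 3 bases before it in Chil3, and the TTCNNNGAA match 200 and 172 bases before it.

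Letters were searched on both strands of 32851 promoter windows of 280 bases. TATAAA was in 13.1% of them and TTCNNNGAA in 7.83%; Chil1 had neither. TTCNNNNGAA, the spacing preferred by the interleukin-4 factor STAT6, was in 6.50% of windows and in none of the 3 members, and GAGGAAGT, a site of the myeloid factor PU.1, was in 2.82% and likewise in none of them. TTNNGCAA, a pattern of C/EBP factors, was in 10.4% of windows and in Chil4. GGGNNNNNCC, the pattern of NF-kB, was in 48.9% of windows and in Chil1 and Chil3. In the members no match to one pattern overlapped a match to another, and a match describes only the letters in a window.

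Levels are log2 intensities. With 1 array per group there is no spread between replicates, and no order of levels given here has a replicate check. A level was read against a floor, the median of all single-gene probe sets on the same array, which was 5.30 for beta cells, 5.23 for wild-type and 5.24 for Fbw7-deleted ductal cells. A level below the floor is treated as an upper bound. In RNA from pooled cells, fewer cells of a type and less RNA per cell cannot be told apart. Levels of different genes come from different probes and are not set against each other.

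Chil3 read 8.91 in wild-type ductal cells, 4.25 in deleted ductal cells and 4.64 in beta cells. It was above the floor on the wild-type ductal array and below it on the other two. Chil4 read 8.69 in wild-type ductal cells, 2.61 in deleted ductal cells and 2.86 in beta cells. The same array was again the high one, and the other arrays read below the floor. Chil1 read 10.82 in wild-type ductal cells, 11.30 in deleted ductal cells and 4.97 in beta cells. It was therefore high on both ductal arrays and below the floor in beta cells, unlike the other members.

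**Figure D1:**
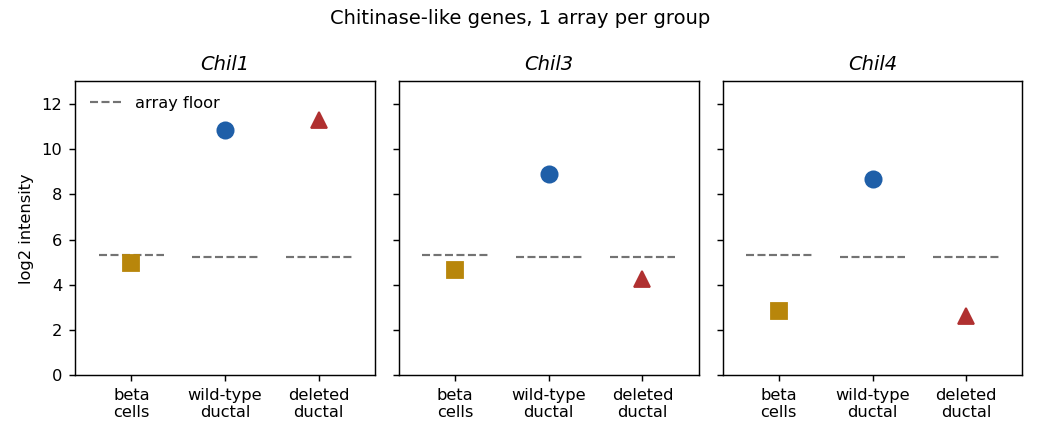
Log2 intensity of Chil1, Chil3 and Chil4 (vertical axis) on the 3 arrays (horizontal axis), 1 point per array, with a dashed line at the floor of each array. Chil3 and Chil4 are above the floor on the wild-type ductal array alone, at 8.91 and 8.69, while Chil1 is above it on both ductal arrays, at 10.82 and 11.30.

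The ductal arrays compare 1 pool of sorted cells per Fbw7 genotype. An effect of the deletion and a difference between the pools, such as in their cell types, cannot be told apart. The product of Fbw7 is the substrate-binding subunit of a ubiquitin ligase that marks proteins for degradation. Chil3 was at least 12.7-fold lower and Chil4 at least 10.96-fold lower in deleted cells, each taken against the floor of the deleted array as deposited; after quantile normalization the bounds were 9.27-fold and 8.02-fold. As measured, the differences were -4.66 and -6.08 on the log2 scale, but their sizes depend on readings below the floor. With every level under the floor set to the floor value, they became -3.67 and -3.45, the most negative and the next among 10035 genes whose higher level passed the floor. Chil1 went the other way by a small amount, 0.48 on the log2 scale or 1.40-fold higher.

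Over those 10035 genes, 1.81% were at least 2-fold lower and 1.43% at least 2-fold higher in deleted cells, and the median difference was 0. Genes higher made up 44.2% of those 2-fold apart, and 60.3% after quantile normalization, which left 92 genes lower in place of 182 and 140 higher in place of 144. Of the 3 members, 2 were in the first class and 0 in the second. The members were selected on this contrast, so the count adds nothing to their values.

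**Figure D2:**
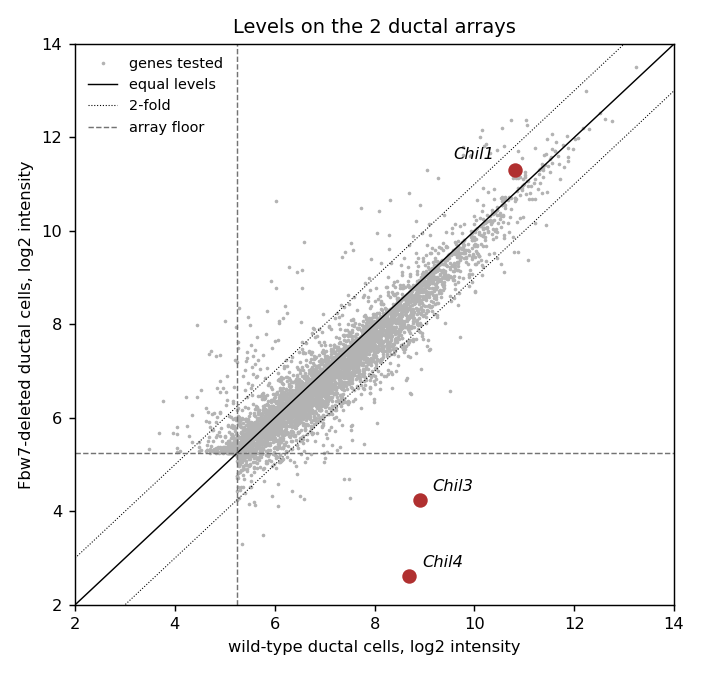
Log2 intensity in wild-type (horizontal axis) and Fbw7-deleted (vertical axis) ductal cells for the 10035 genes tested, 1 grey point per gene, with the members in red, equal levels as a solid line, 2-fold lines dotted and the array floors dashed. Chil3 and Chil4 lie far below the lower dotted line and below the floor of the deleted array, at 4.25 and 2.61; Chil1 lies close to the line of equal levels.

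Beta cells served as the endocrine reference. Against wild-type ductal cells Chil1 was at least 45.6-fold lower in beta cells, Chil3 at least 12.1-fold and Chil4 at least 10.5-fold lower, each against the floor of the beta cell array as deposited. With the loess trend of difference on mean level removed, these bounds fell to 16.7-fold, 6.38-fold and 5.81-fold. As measured the differences were -5.84, -4.26 and -5.84 on the log2 scale. All 3 members were thus at least 2-fold lower, where 25.8% of 11139 genes were at least 2-fold lower and 6.37% at least 2-fold higher. The median over all genes tested was -0.11. This comparison and that of the ductal arrays share the wild-type ductal array, so the large differences of Chil3 and Chil4 in both rest on the same 1 array.

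Against deleted ductal cells Chil1 was at least 63.7-fold lower in beta cells, with a measured difference of -6.32, the second most negative of 11095 genes. With the loess trend removed the bound was 26.4-fold. Here 23.0% of genes were at least 2-fold lower and 5.13% at least 2-fold higher. Chil3 and Chil4 were below the floor on both arrays and did not enter this comparison; no fold is given for them.

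Over the whole array, 128 genes (0.642%) were above the floor in wild-type ductal cells alone, the class that holds Chil3 and Chil4. Chil1 was among 1127 genes (5.65%) above the floor on both ductal arrays but not in beta cells.

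The rest of the chitinase family was low on every array. Of 7 further family genes, 6 had a probe set of their own; Ovgp1, an oviduct glycoprotein gene, shares its probe set with another gene and was not analysed here. The catalytic chitinase genes Chia1, the acidic chitinase of stomach and lung, and Chit1, the chitotriosidase of macrophages, read below the floor throughout. Chia1 read 4.22 on all 3 arrays, and Chit1 read 4.28 in beta cells and 3.81 on both ductal arrays. Chil5 read 3.95 in beta cells and 3.18 on both ductal arrays, and Chil6 read 3.91, 2.76 and 2.72 in beta, wild-type and deleted ductal cells. Chid1, a lysosomal member of the family, read 5.22 on all 3 arrays. Ctbs, a lysosomal chitobiase, read 4.98, 5.27 and 5.17 and passed the floor, by a small margin, in wild-type ductal cells alone.

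The nearest genes on either side of Chil3 and Chil4 did not share their pattern. In the cluster on chromosome 3, Chia1 lies on one side of Chil3 and Chil6 on the far side of Chil4, and both were below the floor on all 3 arrays. Further out, Atp5pb, a subunit of the mitochondrial ATP synthase, read 6.94 in beta cells and 7.88 on both ductal arrays, and Cept1, a phospholipid synthesis enzyme, 6.55 in beta cells and 6.62 on both. Both had exactly equal values on the ductal arrays, as 47.2% of all probe sets did. Next to Chil1, Chit1 was below the floor on every array, and Mybph, a muscle myosin-binding protein, read 6.07 in beta cells and 5.66 on both ductal arrays. Fmod, a matrix proteoglycan gene of the same stretch, was below the floor in beta cells and read 7.23 and 6.89 in wild-type and deleted ductal cells. It was low in beta cells and high on both ductal arrays, as Chil1 was.

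**Figure D3:**
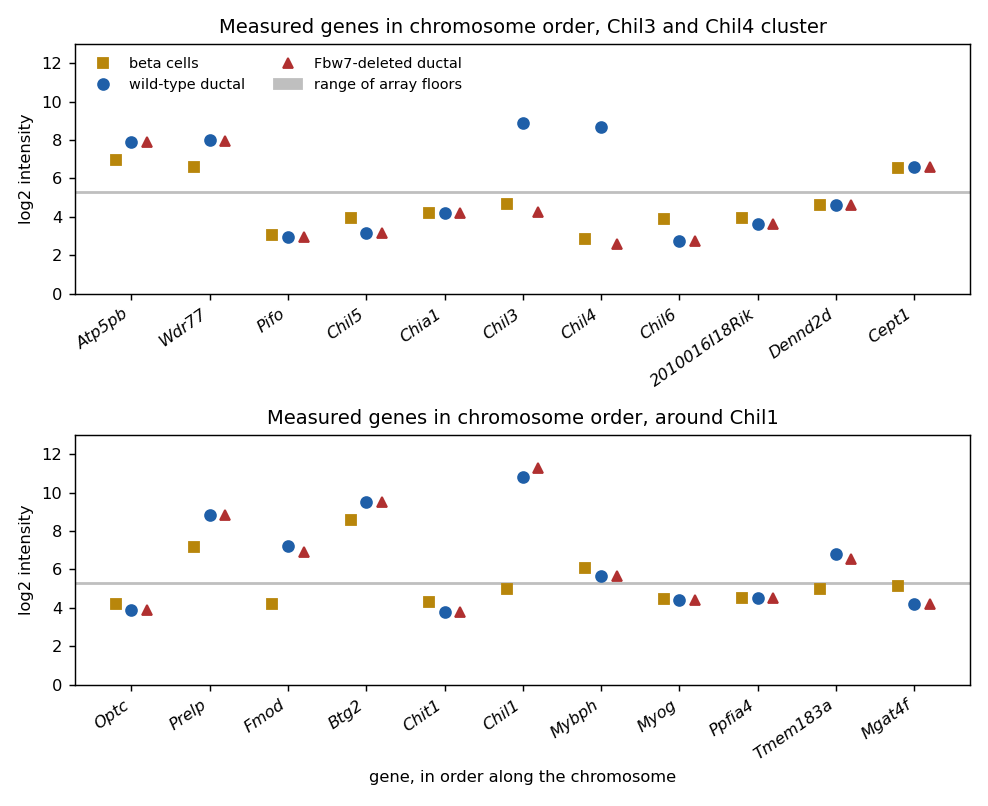
Log2 intensity (vertical axis) of the measured genes around Chil3 and Chil4 (upper panel) and Chil1 (lower panel), in order along the chromosome (horizontal axis), with 1 symbol per array and a grey band at the range of the array floors. Among the family genes of the upper panel, those other than Chil3 and Chil4 stay below the band, and Chil3 and Chil4 are above it on the wild-type ductal array alone.

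The genes most like each member were found by the Euclidean distance between log2 levels centred on the mean of each gene, over 3 arrays and 10688 genes above the floor on at least 1 array. The nearest to Chil1 were Upk1b, a uroplakin gene, at a distance of 0.25, Pkhd1l1, a large membrane protein gene, at 0.32, the complement protease gene C1s1 at 0.35, the mucin gene Muc16 at 0.35 and the membrane glycoprotein gene Gpm6a at 0.48. Of these 5 genes, 4 (Upk1b, Pkhd1l1, Muc16 and Gpm6a) are on a list of mesothelial markers, genes of the cell layer that covers the abdominal organs. Upk1b read 4.69 in beta, 10.52 in wild-type ductal and 10.70 in deleted ductal cells. With levels left uncentred, 1 of the 5 nearest genes (Upk1b) stayed, and Upk3b and Msln, further markers of that list, were among the new ones.

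As deposited, the genes nearest to Chil3 were Tdo2, a tryptophan-degrading enzyme, at a distance of 1.05 and Chil4 at 1.23, followed by the carbonic anhydrase gene Car4 at 1.31, the interferon-induced Gbp2b at 1.39 and the guidance factor gene Sema3a at 1.53. Chil4 was nearest to Chil3 and then to Tdo2, at 2.24, with the same other genes after them. These distances rest largely on readings below the floor. With those readings set to the floor, an alternative added after seeing the data, Chil4 became the gene nearest to Chil3, at 0.17, and Car4 the next, at 0.63. Of the 5 genes as deposited, 2 stayed for Chil3 (Chil4 and Car4) and 3 for Chil4, and 2 for Chil1 (Upk1b and C1s1), where Upk1b was still the nearest, at 0.42. With uncentred levels 3 of 5 stayed for Chil3, without Chil4, and 4 of 5 for Chil4, with Chil3 still the nearest. Chil3, Chil4 and the genes nearest to them as deposited were all highest on the wild-type ductal array. Tdo2 read 7.51 there and 4.29 on each of the other arrays; Car4 read 9.51 there and 6.70 and 6.57 in beta and deleted ductal cells, above the floor on all 3 arrays.

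**Figure D4:**
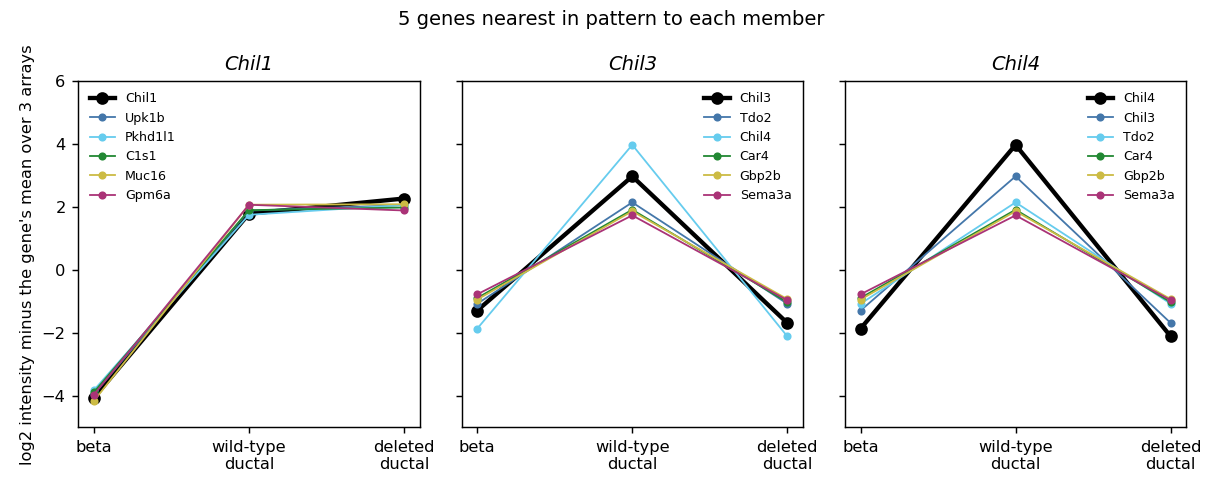
Log2 intensity minus the mean of each gene over the 3 arrays (vertical axis) on each array (horizontal axis), for each member in black and the 5 genes nearest to it in colour. The lines of Chil1 and its neighbours nearly coincide, at distances of 0.25 to 0.48, while Chil3, Chil4 and the genes nearest to them share a peak on the wild-type ductal array; readings below the floor are drawn as deposited.

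Mesothelial markers were read on the whole list because of their likeness to Chil1. All 13 were above the floor on both ductal arrays and 7 in beta cells. Their summed intensity on the linear scale was 566 in beta, 12266 in wild-type ductal and 12126 in deleted ductal cells. Against wild-type ductal cells 12 of the 13 were at least 2-fold lower in beta cells, with a median difference of -5.08, beside 25.8% of all genes. Between the ductal arrays 0 of 13 differed 2-fold, near the share over all genes, of which 1.81% were lower and 1.43% higher. The median was 0.01, with Lrrn4 at -0.37 and Nkain4 at -0.31 the lowest and Upk1b at 0.18 and Pkhd1l1 at 0.31 the highest. Like Chil1, mesothelial markers were lower in beta than in ductal cells. The list holds genes already found nearest to Chil1 in these same values, so its likeness to Chil1 is in part built in. Whether such cells contributed to the Chil1 signal was not tested.

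Macrophage and granulocyte markers were read because Chil3 and Chil4 are known from those cells. Of 21 macrophage markers, 3 were above the floor on each ductal array and 14 on the beta cell array. Over all 19938 genes, 9973 were above it in beta, 9830 in wild-type ductal and 9872 in deleted ductal cells. Which cells the signal of Chil3 and Chil4 came from was not tested. Adgre1, the macrophage receptor F4/80, read 3.10 on the wild-type and 3.12 on the deleted ductal array. The lysozyme gene Lyz2 read 3.02 and 3.08 on those arrays and 6.73 in beta cells. The 3 above the floor in ductal cells were Cd14, a lipopolysaccharide co-receptor, at 9.76 and 9.60 in wild-type and deleted cells, Cd68 at 5.89 and 5.68, and the growth factor receptor gene Csf1r at 5.83 on both. Their differences were -0.16, -0.21 and 0. The summed intensity of the 21 genes was 1233 in beta, 1298 in wild-type ductal and 1223 in deleted ductal cells. Cd14 made up 868 and 778 of the wild-type and deleted sums and 55.2 of the beta sum; the other 20 genes summed to 1178, 430.0 and 445.

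Of 15 neutrophil markers 2 were above the floor on each array, Lcn2 and Camp in each case. Lcn2, a siderophore-binding protein also made by epithelia, read 8.94 on the wild-type and 8.83 on the deleted ductal array, and Camp, an antimicrobial peptide gene, read 5.43 on both. The granule genes S100a8, at 3.73 on all 3 arrays, and Ly6g, at 2.91 on both ductal arrays, were below the floor. The summed intensity of the list was 397, 734 and 695 in beta, wild-type and deleted ductal cells. Of 7 eosinophil markers 0 were above the floor on either ductal array, with summed intensities of 179, 109 and 113. Of 6 peritoneal macrophage markers, 4 were above the floor on the wild-type and 3 on the deleted ductal array. Between these arrays 0 of 4 tested differed 2-fold, beside 1.81% lower and 1.43% higher over all genes. They ranged from the lipoxygenase gene Alox15 at -0.56 to Icam2 at 0. Of 9 lymphocyte markers 0 were above the floor on either ductal array and 3 in beta cells. The summed intensity of the peritoneal macrophage markers was 225, 1841 and 1666, most of it from Prg4, a lubricating proteoglycan, at 10.36 and 10.18 on the ductal arrays. Gata6 read 8.65 and 8.63 there, while Timd4 and F5 were below the floor on all 3 arrays. Which cells the signal of Prg4 and Gata6 came from was not tested.

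**Figure D5:**
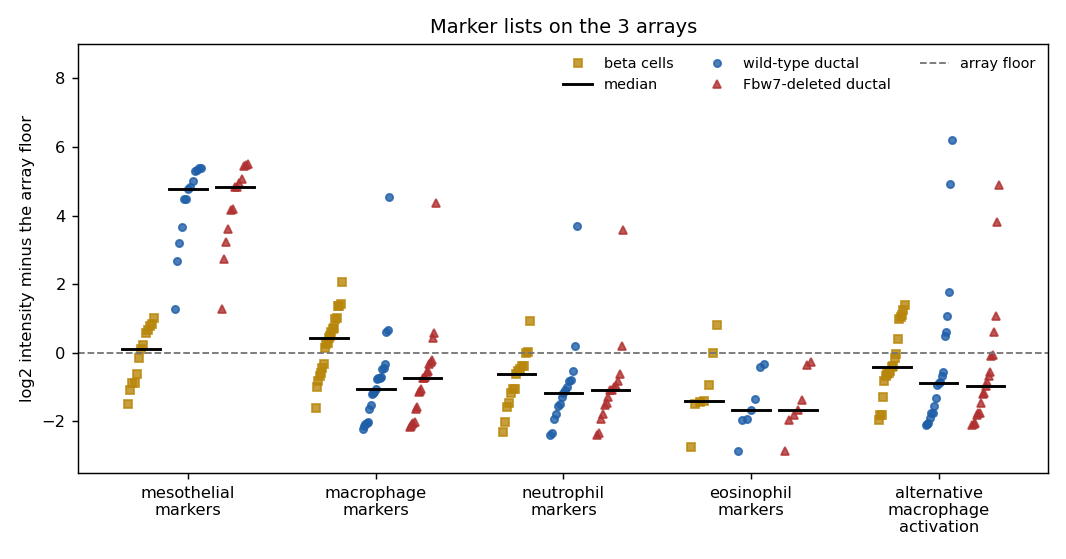
Log2 intensity minus the array floor (vertical axis) of the genes in 5 lists (horizontal axis), 1 symbol per gene and array, with a black bar at the median. Mesothelial markers lie above the floor on both ductal arrays, all 13 of them, while macrophage markers are above it for 14 of 21 genes in beta cells and 3 of 21 on each ductal array.

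Genes of alternative macrophage activation, the setting in which Chil3 is best known, were mostly below the floor. Of 19 measured, 6 were above it in beta, 6 in wild-type ductal and 4 in deleted ductal cells. Retnla (3.48 on both ductal arrays) and Arg1 (4.67 on all arrays) were below it on the ductal arrays. So was Mrc1, the mannose receptor gene, at 4.36 on the wild-type and 4.03 on the deleted ductal array. Ccl24 (6.30 on all arrays) and Socs1 (5.84 on both ductal arrays) were above it. Alox15 passed it on the wild-type ductal array alone, at 5.73, and read 5.16 on each of the other arrays. Of 6 genes tested between the ductal arrays, 3 were at least 2-fold lower in deleted cells, 0 were higher and the median was -0.83, beside 1.81% and a median of 0 over all genes. The 3 were the amino acid transporter Slc7a2 at -1.87 (at 5.14, below the floor, in deleted cells), the matrix protein fibronectin Fn1 at -1.32 and the transglutaminase Tgm2 at -1.09, which are also expressed by mesenchymal and epithelial cells. Ccl24 and Socs1 were identical on the ductal arrays. The summed intensity of the list was 805, 4437 and 2049 in beta, wild-type and deleted ductal cells, and without Fn1 and Tgm2 it was 607, 515 and 403.

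Cytokines and receptors of type 2 immunity, which induce Chil3 and Chil4 in other tissues, were tested in the same way. Of 9 genes above the floor, 2 were at least 2-fold lower in deleted cells, 0 were higher, and the median was -0.05, beside 1.81% lower and 1.43% higher over all genes. Il4ra, the receptor chain shared by interleukins 4 and 13, read 6.59 in beta, 8.95 in wild-type ductal and 7.82 in deleted ductal cells, a difference between the ductal arrays of -1.14. The alarmin gene Il33 read 5.85, 7.93 and 6.88, a difference of -1.04. Il13ra1, the other chain of the receptor, was at -0.87. These 3 had the most negative differences of the list, and each was highest on the wild-type ductal array. Of the 9 genes 4 had equal values on the ductal arrays. A relation of these genes to Chil3 and Chil4 was not tested. The signal transducer Stat6 read 7.61 and 7.57 on the ductal arrays, and Tyk2 and Il1rap were identical on them. Of the cytokines themselves Il4 and Il5 read below the floor on both ductal arrays and Il13 read 5.38 on both. In beta cells Il4 read 5.72 and Il13 5.95, higher than on either ductal array.

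Genes of binding partners of the Chil1 protein were read on the same arrays. Of 9 listed genes 8 were above the floor on each array, that of beta cells included. Between the ductal arrays 0 of 8 differed 2-fold, near the share over all genes, of which 1.81% were lower and 1.43% higher. The median was -0.10. Cd44, the hyaluronan receptor, was at -0.74 and the integrin gene Itgav at -0.43, while Ptgdr2, Sdc1 and Itgb5 were identical. Tmem219, a co-receptor for Chil1, read 5.84 in beta, 7.05 in wild-type ductal and 6.69 in deleted ductal cells. Its partner Il13ra2 read 2.84 on both ductal arrays, below the floor.

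Enzymes that break down chitin oligomers and reuse their sugars were tested as well. Of 7 genes, 1 was at least 2-fold lower in deleted ductal cells, 0 were higher and the median was -0.12, again beside 1.81% lower and 1.43% higher over all genes. The gene was Hexa, a lysosomal hexosaminidase subunit, at 7.73 in wild-type and 6.51 in deleted cells, a difference of -1.22. Nagpa was at -0.44, Gnpda2 at 0 and Renbp, a renin-binding epimerase, at 0.06.

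Markers of the sorted and neighbouring cell types also differed between the ductal arrays, beside Chil3 and Chil4. Of 18 ductal markers 15 were above the floor on the wild-type and 16 on the deleted ductal array (summed intensity 1810, 6046 and 11074 in beta, wild-type and deleted ductal cells). The chloride channel gene Cftr and the carbonic anhydrase gene Car2 were below it on both. Of 16 tested, 7 were at least 2-fold higher and 0 lower in deleted cells, with a median of 0.92; over all genes 1.43% were higher and 1.81% lower. Of 18 acinar markers tested, 15 were at least 2-fold higher and 1 lower, with a median of 1.77 (summed intensity 67965, 16978 and 47423). Of 10 fibroblast markers tested, 0 were higher and 4 at least 2-fold lower, with a median of -0.69 (summed intensity 1893, 10113 and 6474), among them the receptor gene Pdgfra at -1.99. The part of these shifts in the differences of Chil3 and Chil4 was not tested.

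On the beta cell array 10 of 14 beta cell markers were above the floor, Pdx1 and G6pc2 not among them, and Ins2, an insulin gene, read 11.04. The targeted gene, listed as Fbxw7, gives no check of the deletion. Of its 2 probe sets, 1 read 4.95 on all 3 arrays, and the other 7.00 in beta, 6.32 in wild-type ductal and 5.71 in deleted ductal cells; where their probes lie relative to the floxed exons was not determined. Exactly equal values on both ductal arrays were found for 47.2% of 35556 probe sets, but for none of the 3 members. Such a tie describes the deposited values and does not show equal expression. Ties also enter the shares and the median over all genes given for the ductal arrays. Chil3 and Chil4 are close paralogs, so signal of one may reach probes of the other. Probe sequences were not examined, and these 2 readings are not treated as independent.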

How the data were processed

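The data are 3 arrays, each of RNA from 1 pool of sorted cells. Per the labels' protocols, 18 ng of RNA per array was amplified with a NuGEN kit and labelled with biotin. The values the authors deposited are log2 intensities made with RMA, per the submitters' processing notes; neither its version nor which arrays were normalized jointly is given in the sources used here. Values spread less on the beta cell array, with an SD over all probe sets of 1.57, than on the wild-type and deleted ductal arrays, with 2.02 and 1.97, so the 3 columns do not have one distribution; this bears on each beta cell comparison. RMA pulls in outlying probes, and the number of arrays limits the precision.

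The platform annotation gave 1 gene for 21789 of 35556 probe sets, several for 1621 and none for 12146; 21698 of the 21789 matched a RefSeq gene of GRCm38.p6 by gene ID. The probe set with the highest mean was used per gene. A gene entered a comparison if its higher level passed the floor of that array (50th percentile of single-gene probe sets), and a difference of 2-fold or more was called. No p-value is given, since no group has a replicate. The members and the gene lists were chosen with earlier results of these data known. Named genes are the members, every measured family gene, up to 4 tested genes of each list (2 highest, 2 lowest between the ductal arrays), the 5 nearest in pattern and the neighbours in the genome. Other genes (among them Tgm2, Il13ra1, Stat6, Tmem219, Adgre1, Lyz2, Retnla, Arg1 and Mrc1) were named after their values were seen. Alternatives were quantile normalization, centring, a loess trend (span 0.3), other floors and folds, and the mean of probe sets; the bounds under each scaling and the likeness with levels raised to the floor were added after seeing the data. Python 3.11.15, numpy 2.4.6, pandas 2.3.3, statsmodels 0.14.6, biopython 1.88 and matplotlib 3.10.9 were used, and the steps were tested on simulated data.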

Additional observations from a re-analysis of the deposited data

How the results depend on the processing

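Each member stayed on the same side of the floor on every array under quantile normalization, centring and the mean of probe sets; each member has 1 probe set, so the last changes nothing. Under the scalings and the loess trend the difference between deleted and wild-type ductal cells ranged from 0.45 to 0.56 for Chil1, from -4.69 to -4.13 for Chil3 and from -6.12 to -5.50 for Chil4. Between beta and deleted ductal cells, where both levels are below the floor, Chil4 changed sign, from 0.24 to -0.26 after quantile normalization. Values moved by over 1.5 times in these cases. Raising levels below the floor to it gave -3.67 for Chil3 and -3.45 for Chil4 between the ductal arrays, and -3.60 and -3.39 between beta and wild-type ductal cells. Removing the loess trend gave -4.43 for Chil1 and -3.57 for Chil3 for beta minus wild-type ductal cells, and -5.08 for Chil1 between beta and deleted ductal cells; the cause was not tested.

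Between the ductal arrays, counts of genes higher in deleted cells were 282 at 1.5-fold and 41 at 4-fold, against 144 at 2-fold. Counts lower were 728 and 15, and 92 after quantile normalization, against 182. For beta against wild-type ductal cells, counts higher were 1192 after quantile normalization, 448 with centring, 1478 with no floor, 394 with the floor at the 75th percentile, 1558 at 1.5-fold and 102 at 4-fold, against 710. Counts lower were 1784 with the loess trend removed and 1151 at 4-fold, against 2875. For beta against deleted ductal cells, counts higher were 1051, 336, 1207, 318, 1439 and 63 under the same 6 settings, against 569, and counts lower 1696 and 915, against 2552. The share higher moved from 19.8% to 37.3% after quantile normalization and 33.6% with the loess trend for wild-type cells, and from 18.2% to 35.8% and 29.6% for deleted cells. Quantile normalization, centring and the loess trend took the median over all genes from -0.11 to 0.09, -0.31 and 0.02 in beta against wild-type ductal cells. The number of arrays and readings below the floor limit all of these values.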
